A study of Mus musculus with 4 samples.

Results

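The nuclear genes that encode subunits of the mitochondrial respiratory chain and of ATP synthase were followed in neural stem cells cultured from mouse embryos, which divide and give rise to neurons and glia. Members were all protein-coding genes whose symbol belongs to the Nduf (complex I), Sdh (complex II), Uqcr (complex III), Cox4 to Cox8 (complex IV) or Atp5 (complex V) families. The rule used names only and no measured value. It found 86 of 55487 genes, of which 38 belong to complex I, 4 to complex II, 8 to complex III, 18 to complex IV and 18 to complex V.

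The series holds 4 libraries, 1 for each group. The Control was a Tut1f/f culture, in which loxP sites flank part of Tut1, given empty lipid nanoparticles (LNP). The Tut1 KO (Tut1f/f), Trp53 KO (p53f/f) and Double KO (Tut1f/f;p53f/f) cultures received LNP that carried mRNA of Cre recombinase, which deletes DNA between loxP sites, and were taken after 3 days. The study asked how loss of Tut1, an enzyme that adds uridines to the U6 RNA of the spliceosome, acts on these cells with and without the transcription factor p53. The Control received no Cre and the Trp53 KO came from another floxed line, so Trp53 deletion, Cre exposure and line cannot be told apart in the Trp53 KO against the Control. In the Tut1 KO against the Control, Tut1 deletion and Cre exposure cannot be told apart. The Double KO came from a further floxed line, so line and deletion cannot be told apart when it is set against the Trp53 KO or the Tut1 KO. The labels do not say how many embryos or cultures went into a library.

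Values were TPM, transcript abundances scaled to a fixed total in each library and divided by transcript length. This is meant to let levels be compared between genes, but the platform is unclear and near-identical pseudogene copies make some values uncertain, as described below. Between 23070 and 23317 genes were listed above 0 in a library, and read depth is unknown because TPM keeps none. All 8 neural stem cell markers exceeded a mean of 10 TPM, and their summed level lay between 10666 and 12553 TPM. Marker lists of microglia (5 genes), endothelium (3 genes) and red cells (3 genes) held only genes below a mean of 1 TPM. Of other neural lists, 3 of 6 oligodendrocyte lineage markers, 3 of 6 neuron markers and 1 of 4 astrocyte markers exceeded 10 TPM. The oligodendrocyte lineage list summed to between 1511 and 1698 TPM, mostly from Olig1 and Olig2, which stem cells grown in culture also express. The neuron list summed to 243 TPM in the Control, 174 TPM in the library labelled Tut1 KO, 213 TPM with Trp53 KO and 224 TPM with Double KO, mostly from Map2, and the astrocyte list to between 82.2 and 93.5 TPM. Their part in the differences below was not tested. Trp53 stood at 119.9 TPM in the Control, 100.4 TPM in the library labelled Tut1 KO, 39.7 TPM with Trp53 KO and 41.9 TPM with Double KO. Tut1 stood at 12.2, 29.8, 12.5 and 13.7 TPM in the same order. Tut1 was thus not lower in either library labelled as lacking it. Cre removes a single exon of Tut1, and gene-level TPM also counts the rest of the transcript, so these values do not check the deletion. The study measured that exon directly and reported efficient deletion in cells treated in this way. Those measurements were not analysed here, and every direction given below for Tut1 deletion rests on the labels.

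The respiratory chain sits in the inner mitochondrial membrane. Complexes I and II take electrons from NADH and succinate, complex III passes them to cytochrome c, and complex IV hands them to oxygen. Complexes I, III and IV pump protons across the membrane, and complex V, the ATP synthase, uses their return to make ATP. All subunits of complex II come from nuclear genes, whereas the other complexes also contain subunits encoded by mitochondrial DNA. Neural stem cells are known to rely more on glycolysis than neurons do, with respiration increasing on differentiation.

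With 1 library per group no test could be run, and no difference below can be set against a spread between cultures. Differences are of log2(TPM + 1). They are described for genes with a mean of at least 10 TPM over the 4 libraries, here called measured genes, which kept 8664 genes in all and 77 of the 86 members. The 9 members below that level were Ndufa4l2, Ndufb11b, Cox4i2, Cox6a2, Cox7a1, Cox7b2, Cox8b, Cox8c and a further Ensembl entry for Atp5o. Of these, Ndufb11b, Cox7b2, Cox8b, Cox8c and the extra Atp5o entry were listed at 0 in every library.

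Many of these promoters are textbook targets of nuclear respiratory factor 1 (Nrf1), so the RefSeq promoter windows (GRCm38.p6, 250 bases before to 50 after the start) were searched on both strands. A window was found for 65 of the 77 measured members. The Nrf1 motif GCGCANGCG occurred in 19 of them (29.2%), beside 17.0% of 6442 measured protein-coding genes and 6.47% of all 27025 windows. The Yy1 motif AAGATGGCG occurred in 6 members (9.23%, beside 4.16% of measured genes and 1.49% of all windows), and the Gabpa motif CCGGAAGTG in 2 (3.08%, beside 5.45% and 2.06%). No 2 of these motifs had overlapping matches in a member window. The Nrf1 matches fell in 8 complex I, 2 complex II, 2 complex III, 1 complex IV and 6 complex V members. Shown are, for each complex, the best expressed member with a match before the start site, with the match in capitals, 5′ to 3′ on the strand of the gene. No match before the start was found among the complex III windows.
Ndufs5, chr4:123718266-123718294, minus strand: gctgcttgctGCGCAGGCGcagacccgct
Sdha, chr13:74350320-74350348, minus strand: cgtttacaggGCGCAGGCGcaccaccact
Cox6a1, chr5:115349102-115349130, minus strand: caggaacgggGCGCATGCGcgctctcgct
Atp5h, chr11:115420042-115420070, minus strand: gaccccgacgGCGCAGGCGccgcgcccgc
The matches lay 98 to 90 bases before the start in both Ndufs5 and Sdha, 162 to 154 in Cox6a1 and 141 to 133 in Atp5h. Members with and without the Nrf1 motif had close median differences between the library labelled Tut1 KO and the Control (0.38 for 19 genes and 0.36 for 46 genes). The corresponding medians for the Double KO against the Trp53 KO were 0.15 and 0.08.

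Together the members made up 2.88% of all TPM in the Control, 3.66% in the library labelled Tut1 KO, 2.84% in the Trp53 KO library and 3.09% in the Double KO. The library labelled Tut1 KO stood apart from the other 3. It held the highest value for 67 of the 77 measured members, and the lowest for 1, Atp5c1. Over all 8664 measured genes it was the highest for 23.1% and the lowest for 41.3%. The Double KO was highest for 8 members, the Control for 2 and the Trp53 KO for none, whereas the lowest value fell in the Control for 32 and in the Trp53 KO for 30. The highest library exceeded the lowest by a median of 1.31-fold, the same as over all 8664 measured genes (1.31-fold), 59 members varied by less than 1.5-fold (6578 of all 8664 genes did), and only Cox6b2 varied by more than 2-fold (705 of all genes did).

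**Figure D1:**
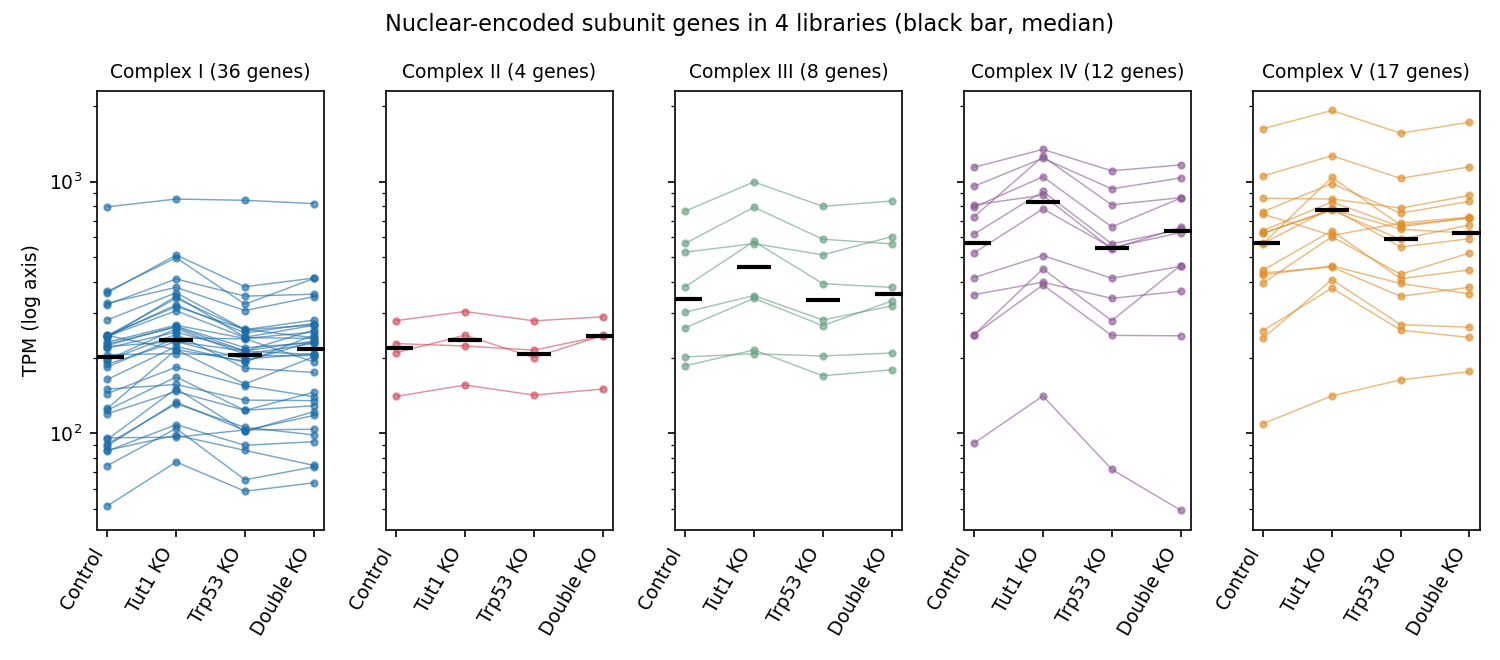
TPM (log axis) of the 77 measured subunit genes in the 4 libraries, 1 line per gene, in a panel for each complex, with black bars at the median. Most lines peak in the library labelled Tut1 KO, which is highest for 67 genes.

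Levels differed far more between subunits than between libraries. Within complex I the best expressed member exceeded the least expressed by 13.2-fold in mean TPM, within complex III by 4.53-fold, within complex IV by 13.4-fold and within complex V by 11.6-fold, whereas the 4 genes of complex II lay within 1.97-fold. These ratios were taken over measured members, each gene counted without its pseudogene copies. The median member reached 216 TPM in complex I, 226 TPM in complex II, 374 TPM in complex III, 652 TPM in complex IV and 664 TPM in complex V. Summed over its members, complex IV stood at 6925 TPM in the Control, 9357 TPM in the library labelled Tut1 KO, 6533 TPM with Trp53 KO and 7449 TPM with Double KO. Complex II stood at 858, 929, 836 and 929 TPM in the same order, so its highest sums came from both libraries labelled as lacking Tut1.

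In complex I, Ndufc2, a membrane-arm accessory subunit, was the most abundant, with 794 TPM in the Control, 852 TPM in the library labelled Tut1 KO, 843 TPM with Trp53 KO and 818 TPM with Double KO. Ndufb2, another membrane-arm subunit, was the least abundant of those measured, at 51.5, 77.1, 59.0 and 63.7 TPM. The nuclear core subunits carry the electrons from NADH to ubiquinone.
Ndufv1, which binds NADH, stood at 85.2 TPM in the Control, 108 TPM in the library labelled Tut1 KO, 89.7 TPM with Trp53 KO and 92.8 TPM with Double KO. Its partner Ndufv2, an iron-sulphur subunit, stood at 221, 232, 212 and 206 TPM. Ndufs1, the large iron-sulphur subunit, was nearly constant at 96.1, 96.6, 103 and 104 TPM.
Ndufs7, Ndufs3 and Ndufs8 belong to the part of the arm that leads to ubiquinone. Ndufs7 stood at 90.7 TPM in the Control, 131 TPM in the library labelled Tut1 KO, 106 TPM with Trp53 KO and 98.7 TPM with Double KO. Ndufs3 stood at 188, 231, 197 and 207 TPM. Ndufs8 stood at 164, 221, 192 and 246 TPM, and was 1 of the 8 members that were highest in the Double KO. Of the 7 core subunits all exceeded the Control in the library labelled Tut1 KO, with a median difference of 0.30, against 0.36 for the 29 accessory subunits.

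Complex II, succinate dehydrogenase, was the least variable. Sdha, its flavoprotein, stood at 227 TPM in the Control, 222 TPM in the library labelled Tut1 KO, 214 TPM with Trp53 KO and 244 TPM with Double KO. Sdhb, the iron-sulphur subunit, stood at 281, 305, 280.0 and 290.3 TPM. The membrane anchors were Sdhc, at 140.3, 156, 142 and 150.1 TPM, and Sdhd, at 209, 246, 200.2 and 245 TPM. All 4 were higher in the Double KO than in its Trp53 KO counterpart, by 0.05 to 0.29, and 3 of the 4 were higher in the library labelled Tut1 KO than in the Control, the exception being Sdha.

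In complex III the hinge protein Uqcrh was highest, at 763 TPM in the Control, 997 TPM in the library labelled Tut1 KO, 797 TPM with Trp53 KO and 837 TPM with Double KO. Uqcrq was lowest, at 186, 215, 169 and 179 TPM. Uqcrfs1, the Rieske iron-sulphur protein that carries out the electron transfer, stood at 263, 344, 268 and 335 TPM. Both libraries labelled as lacking Tut1 therefore lay above both others for Uqcrfs1, by 0.39 with Trp53 intact and 0.32 without it.

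In complex IV, cytochrome c oxidase, the small subunit Cox7c was the most abundant, at 1140 TPM in the Control, 1341 TPM in the library labelled Tut1 KO, 1103 TPM with Trp53 KO and 1164 TPM with Double KO. Cox6b2 was the least abundant of those measured. Several subunits of this complex come in paired genes, of which 1 is used in most tissues and the other in heart, skeletal muscle, lung or testis. The common forms Cox4i1, Cox6a1 and Ndufa4 provided between 99.1% and 99.9% of the TPM of their pairs, and Cox7b and Cox8a provided all of theirs. Ndufa4 carries a complex I name, but is known as a component of complex IV, and Ndufa4l2, its hypoxia-induced relative, lay between 0.24 and 0.94 TPM.
Cox6b2, known as the testis form of Cox6b, was an exception, with 8.73% of the pair in the Control, 10.2% in the library labelled Tut1 KO, 7.15% in the Trp53 KO library and 4.58% in the Double KO. Cox7a1, the form of heart and skeletal muscle, made up at most 1.14% of the Cox7a family.

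In complex V the catalytic beta subunit Atp5b was the most abundant of all members, at 1621 TPM in the Control, 1915 TPM in the library labelled Tut1 KO, 1555 TPM with Trp53 KO and 1720 TPM with Double KO. Its partner, the alpha subunit Atp5a1, stood at 858, 853, 784 and 881 TPM. Alpha and beta assemble in equal numbers in the catalytic head. The membrane ring is made of a single protein, subunit c, which 3 genes encode. Atp5g3 supplied 56.0% to 59.0% of their TPM and Atp5g2 supplied 32.1% to 35.6%. Atp5g1, counted without copies, was the least abundant measured member of the complex. Its share was 6.13% in the Control, 6.46% in the library labelled Tut1 KO, 8.86% in the Trp53 KO library and 9.07% in the Double KO. With pseudogene copies added to their genes, a setting chosen after seeing the data, the share of Atp5g1 was 11.4%, 13.5%, 13.6% and 14.9%, that of Atp5g3 was 44.8% to 47.2% and that of Atp5g2 was 37.8% to 42.1%. With copies, Atp5g1 was above Atp5d in the Control (258 against 239 TPM). It was above Atp5k in the Trp53 KO (310 against 263 TPM) and the Double KO (361 against 245 TPM). In the library labelled Tut1 KO it was still below Atp5k (383 against 387 TPM).

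The library labelled Tut1 KO was compared with the Control to describe Tut1 deletion while Trp53 is intact. Of the 77 members 73 were higher, with a median difference of 0.35, while the median of all measured genes was -0.09 and 3396 of 8664 were higher. The median was 0.35 in complex I, 0.13 in complex II, 0.30 in complex III, 0.48 in complex IV and 0.37 in complex V. No member was past 2-fold, beside 3.25% of all measured genes in either direction. At 1.5-fold, 10 members were higher, beside 3.49% of measured genes, and no member was lower, beside 7.24%. The number higher was 4 with a fit on transcript length and GC content removed, where the median was 0.19, and 19 with the median of all genes set to 0. Shares of all measured genes are not given under these settings, so 3.49% is not a counterpart of either count.

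The 10 were Atp5o, Cox7a2l, Cox8a, Atp5d, Ndufa12, Ndufa6, Cox5b, Cox6b2, Atp5j and Uqcr11, and 4 of them belong to complex IV. With near-identical pseudogene copies added to their gene the number was 8, since Ndufa12 then had a difference of -0.51 and Uqcr11 one of 0.58, just under the threshold of 0.585. Atp5o, also called OSCP, joins the catalytic head of ATP synthase to its peripheral stalk. It stood at 566 TPM in the Control, 1039 TPM in the library labelled Tut1 KO, 672 TPM with Trp53 KO and 716 TPM with Double KO, a difference of 0.87 between the first pair. Cox8a, the smallest subunit of complex IV, stood at 725, 1258, 808 and 863 TPM, a difference of 0.79. In both genes the library labelled Tut1 KO lay far above the other 3, which ranged from 566 to 716 TPM for Atp5o and from 725 to 863 TPM for Cox8a.
Of the 3 measured central stalk genes of ATP synthase, Atp5d and Atp5e were higher in the library labelled Tut1 KO (0.77 and 0.52) and Atp5c1 was lower. Atp5d, the delta subunit, stood at 239 TPM in the Control, 408 TPM in the library labelled Tut1 KO, 270.4 TPM with Trp53 KO and 264 TPM with Double KO, a difference of 0.77. Atp5c1, the gamma subunit that turns within the head, stood at 742, 611, 685 and 724 TPM, a difference of -0.28. Atp5c1 was the member with the most negative difference in this contrast, followed by Ndufb5 (-0.19) and Sdha (-0.03).

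The Double KO was compared with the Trp53 KO to describe the same label once Trp53 is deleted, and shares no library with the contrast above. Of the 77 members 58 were higher (75.3%, beside 59.2% of all measured genes), with a median difference of 0.11 beside 0.05 over all measured genes. By complex, the medians were 0.08, 0.13, 0.07, 0.15 and 0.11 from I to V. No member was past 2-fold (2.56% of all measured genes), 1 was at least 1.5-fold higher (3.14%) and none was at least 1.5-fold lower (3.76%). The counts past a fold were thus not above those of all genes.
The member past 1.5-fold was Cox7a2l, also known as SCAF1, which links complexes III and IV into supercomplexes. Cox7a2l stood at 247 TPM in the Control, 450.2 TPM in the library labelled Tut1 KO, 280.5 TPM with Trp53 KO and 464 TPM with Double KO. Its differences were 0.87 with Trp53 intact and 0.72 without it, and both libraries labelled as lacking Tut1 were at least 0.68 above both others. Its share of the Cox7a family was 32.0%, 36.3%, 33.5% and 42.3% in the 4 libraries in the same order, while Cox7a2, its counterpart within complex IV, held 67.5%, 62.8%, 65.3% and 57.1%.
Next came Cox4i1, the largest nuclear subunit of complex IV, with 791, 1045, 661 and 859 TPM and a difference of 0.38, and Ndufs8 with 0.36. The most negative differences were those of Cox6b2 (-0.53), Ndufv3 (-0.30), a small accessory subunit of complex I, and Ndufc1 (-0.20). Ndufv3 stood at 184 TPM in the Control, 239 TPM in the library labelled Tut1 KO, 238 TPM with Trp53 KO and 192 TPM with Double KO.

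**Figure D2:**
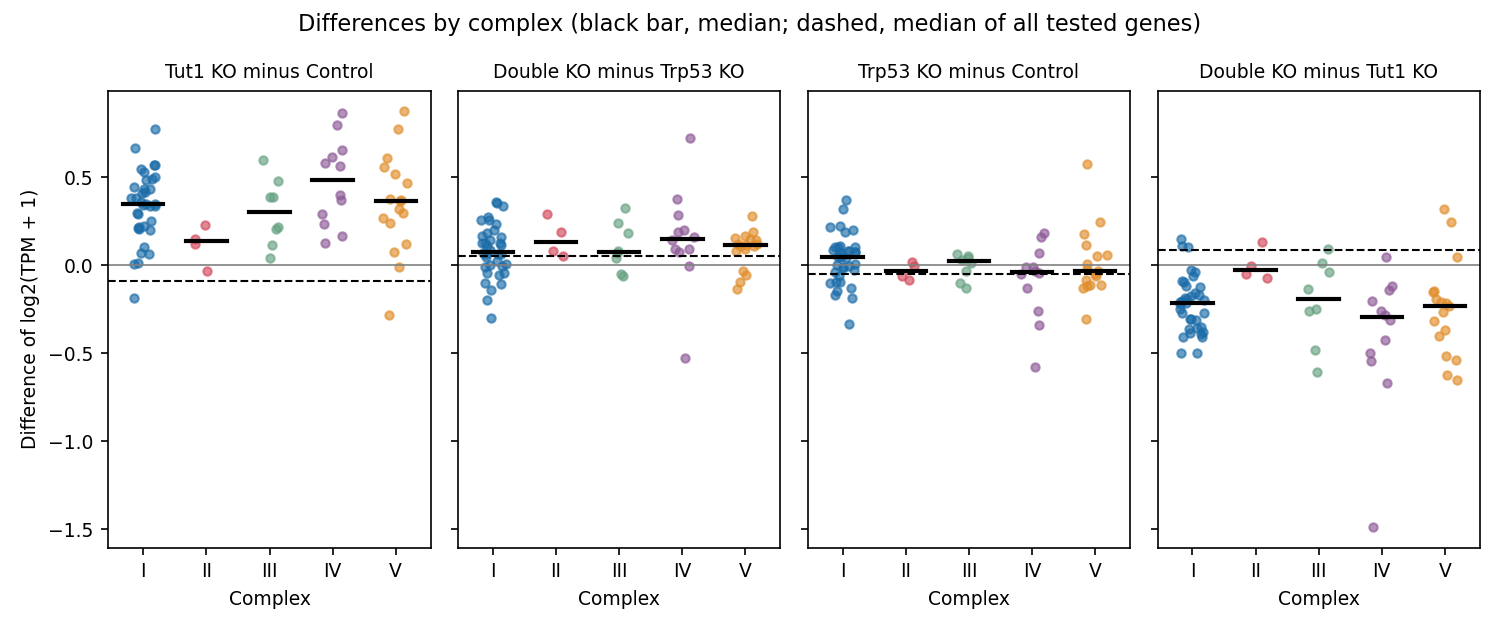
Difference of log2(TPM + 1) for the 77 measured members (points) by complex in 4 contrasts, with black bars at the median of a complex, a dashed line at the median of all measured genes and a grey line at 0. All 5 medians are above the dashed line in the library labelled Tut1 KO against the Control and below it in the Double KO against the library labelled Tut1 KO.

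In 54 of the 77 members the difference was above 0 in both contrasts of the Tut1 label, and in none was it below 0 in both. Among all 8664 measured genes, 1924 were above 0 in both and 2062 below 0 in both. The sizes of the differences showed little relation between the contrasts (Spearman's rho 0.11 across the 77 genes, which share libraries and are not independent). In 47 members (61.0%) both libraries labelled as lacking Tut1 lay above both others, beside 15.5% of all measured genes. No member showed the opposite order, which 16.8% of measured genes did. Cox7a2l, Ndufa12 and Uqcrfs1 had the widest gaps among the 47, at 0.68, 0.35 and 0.32. With its copy added, Ndufa12 had the opposite order, with differences of -0.51 and -0.57.

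**Figure D3:**
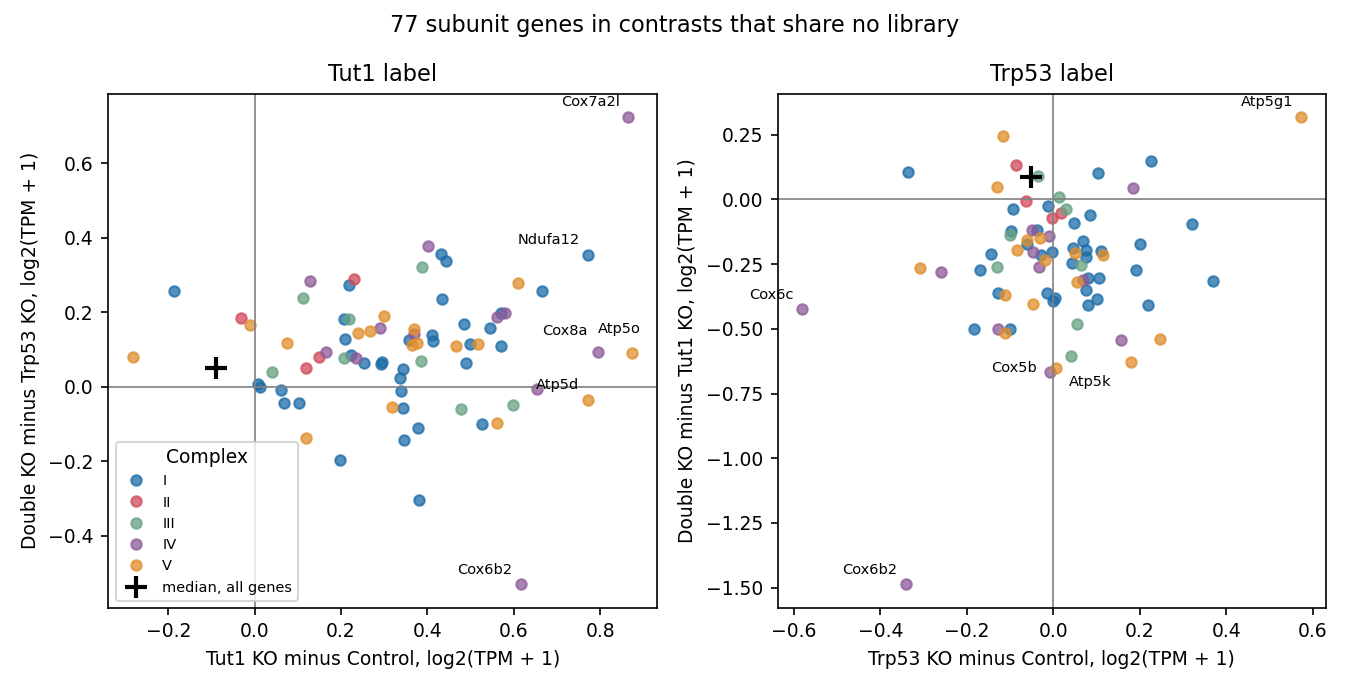
Differences of log2(TPM + 1) of the 77 measured members in the contrasts of the Tut1 label (left) and of the Trp53 label (right), with a cross at the median of all measured genes. On the left most points lie right of 0 and 54 lie above 0 on both axes, with Cox7a2l at its edge, and on the right Cox6b2 lies apart at the bottom.

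The Trp53 KO was compared with the Control for the effect of the Trp53 label with Tut1 intact. Of the members 37 (48.1%) were higher and 40 lower, with a median difference of -0.0030, while 39.9% of all measured genes were higher and their median was -0.05. With the length and GC fit removed, 21 of the 77 members were higher and their median was -0.06, beside 3457 of 8664 genes and a median of -0.05, so the members went from above to below the level of all genes. No member was past 2-fold (3.06% of measured genes), and none was 1.5-fold higher (3.42%) or lower (3.72%). The largest positive differences were those of Atp5g1 (0.57), Ndufv3 (0.37) and Ndufa12 (0.32). With their pseudogene copies added, Atp5g1 had 0.26 and Ndufa12 -0.06.
The most negative belonged to Cox6c (-0.58), Cox6b2 (-0.34) and Ndufb5 (-0.34). Cox6c, a small subunit of complex IV, stood at 808 TPM in the Control, 883 TPM in the library labelled Tut1 KO, 540.1 TPM with Trp53 KO and 658 TPM with Double KO, so both Trp53-deleted libraries were below both others. Ndufb5, a membrane-arm subunit of complex I, stood at 245, 215, 194 and 232 TPM, and its groups overlapped.

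The Double KO was compared with the library labelled Tut1 KO for the Trp53 label with Tut1 deleted by label. Here 67 of the 77 members were lower, with a median difference of -0.22, while 3411 of all 8664 measured genes were lower and their median was 0.09. Cox6b2 was past 2-fold, beside 3.15% of measured genes in either direction. With Cox6b2, 5 members were at least 1.5-fold lower (3.51% of measured genes) and none was 1.5-fold higher (6.04%). The number lower was 2 with the length and GC fit removed, where the median was -0.11, and 11 with the median of all genes set to 0. For these settings too, shares of all measured genes are not given, so 3.51% is not a counterpart of either count. Cox6b2 stood at 91.6 TPM in the Control, 141 TPM in the library labelled Tut1 KO, 72.1 TPM with Trp53 KO and 49.6 TPM with Double KO, a difference of -1.49 between the last and the library labelled Tut1 KO.
The others were Cox5b (-0.67), Atp5k (-0.65), Atp5d (-0.63) and Uqcr11 (-0.61). Cox5b, a matrix-side subunit of complex IV, stood at 247, 389, 245 and 244 TPM, so the library labelled Tut1 KO alone was high. The same held for Atp5k, subunit e of ATP synthase, at 256, 378, 257 and 240.4 TPM. The largest positive differences were those of Atp5g1 (0.32, or -0.08 with its copies), Atp5c1 (0.24) and Ndufs8 (0.15).

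By the Trp53 label, only 2 members, Atp5g1 and Ndufs1, had both deleted libraries above both intact ones, beside 14.3% of measured genes. In the other direction there were 14 (18.2%), beside 13.3% of measured genes, with the widest gaps in Cox6b2 (0.34), Cox6c (0.30) and Atp5j2 (0.19). With the length and GC fit removed from each library, 20 members had this direction, beside 12.8% of measured genes. Under the same setting 2 had the former direction, beside 16.9%. Atp5g1 stood at 109 TPM in the Control, 141 TPM in the library labelled Tut1 KO, 163 TPM with Trp53 KO and 176 TPM with Double KO. With its pseudogene copies added it lost this order, which left 1 member.

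Respiratory subunits are small proteins, and their transcripts are short. The reference transcript of a measured member had a median length of 861 nt and 4 exons, against 2844 nt and 9 exons over measured protein-coding genes. Among the 77, 41 fell in the shortest decile of measured genes (up to 882 nt), including 10 of the 12 of complex IV and none of complex II. Their median GC content was 51.3%, beside 50.4%. Length and GC content moved with the differences of all genes. Across all measured genes, the library labelled Tut1 KO against the Control had a Spearman's rho of -0.35 with length and 0.42 with GC content, and across members -0.41 and 0.43. For the Double KO against the Trp53 KO the signs over all genes were opposite, with 0.16 for length and -0.21 for GC content.
The other 830 genes of the shortest decile had a median difference of 0.15 in the library labelled Tut1 KO against the Control, and of -0.05 in the Double KO against the Trp53 KO. After a fit of the differences on length and GC content was removed, the median of the members was 0.19 in the former contrast, with 67 of 77 above 0, and 0.16 in the latter, with 68 of 77 above 0. The all-gene medians were then -0.09 and 0.04, with 3097 and 5057 of 8664 genes above 0. The 78 nuclear genes of mitochondrial ribosomal proteins had 0.08 and 0.16 after the fit, with 51 and 58 above 0. The 78 cytosolic ribosomal protein genes had 0.10 and -0.0079, with 55 and 37 above 0. The number of members with both libraries labelled as lacking Tut1 above both others was 45 with the fit removed from each library, beside 15.8% of measured genes. With the fit removed, complex IV had the highest median of the 5 complexes in both contrasts, at 0.28 and 0.23.

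**Figure D4:**
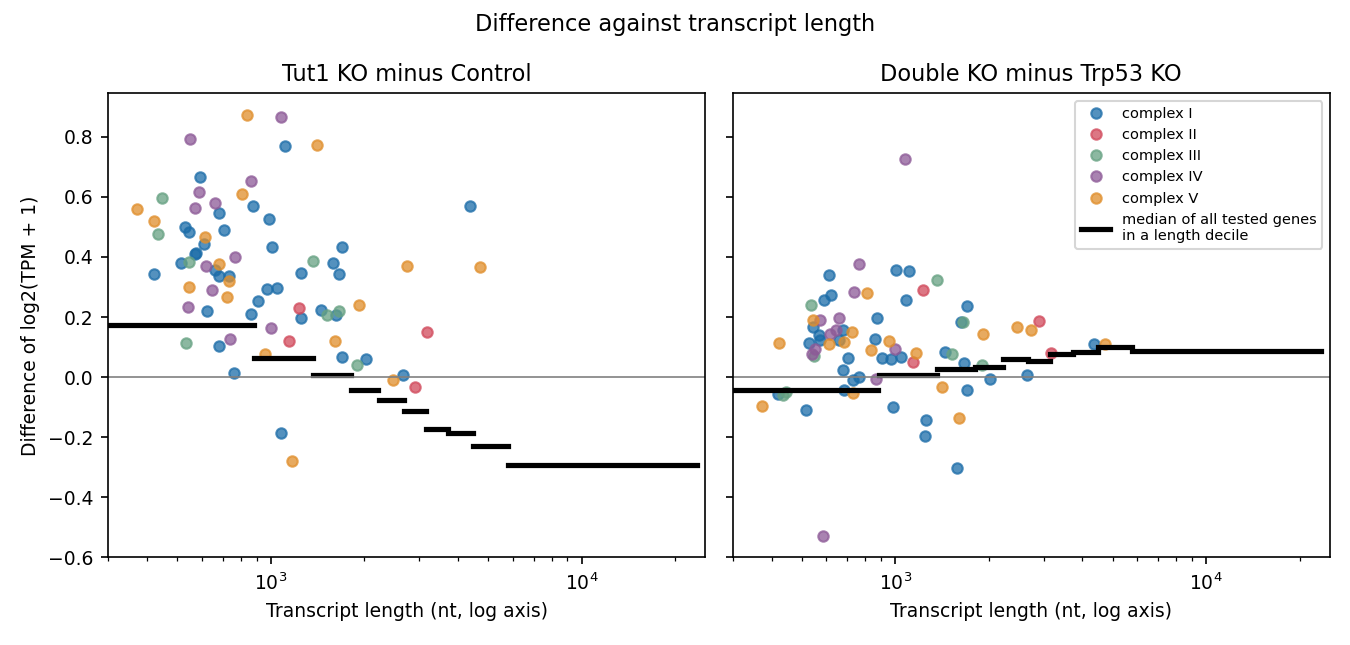
Difference of log2(TPM + 1) against transcript length (nt, log axis) for the measured members (points, coloured by complex) and the median of all measured genes in each decile of length (black bars). The bars descend with length on the left, from 0.17 to -0.29, and climb slightly on the right, from -0.04 to 0.09, while most members lie above them in both panels.

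Other gene groups that serve mitochondria or share the short transcripts were set beside the members. Cytosolic ribosomal protein genes (78, median length 882 nt) had median differences of 0.23 in the library labelled Tut1 KO against the Control and -0.05 in the Double KO against the Trp53 KO. Nuclear genes of mitochondrial ribosomal proteins (78, median length 1302 nt) had 0.13 and 0.10. In the library labelled Tut1 KO against the Control, 72 of the 78 cytosolic and 58 of the 78 mitochondrial ribosomal protein genes were higher, beside 73 of the 77 members. In the Double KO against that library, 66 and 49 of them were lower, with medians of -0.17 and -0.07, beside 67 members and a median of -0.22. The 13 protein-coding genes of mitochondrial DNA, whose products join complexes I, III, IV and V, summed to 90437 TPM in the Control, 76790 TPM in the library labelled Tut1 KO, 77607 TPM with Trp53 KO and 80253 TPM with Double KO. In the library labelled Tut1 KO, 12 of these 13 were below the Control, with a median difference of -0.33, while 73 of the 77 nuclear members were above it.
In the Trp53 KO against the Control, 12 of the 13 were also lower, with a median of -0.38, while the nuclear members had a median of -0.0030. How the kit and the counting treated mitochondrial transcripts is not given in the sources used here.

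Among further genes of the pathway, 4 subunits or carriers outside the naming rule were measured. Cyc1, the cytochrome c1 of complex III, stood at 194 TPM in the Control, 293 TPM in the library labelled Tut1 KO, 203 TPM with Trp53 KO and 215 TPM with Double KO, and its difference of 0.59 was past 1.5-fold. Ndufab1, the acyl carrier subunit of complex I, stood at 113, 163, 116 and 130.1 TPM. Cytochrome c itself (Cycs) stood at 214, 228, 181 and 225 TPM, and Atpif1, an inhibitor of ATP synthase, at 494, 576, 491 and 420.5 TPM.
Assembly factors build the complexes but are not part of them. Of 49 listed, 41 were measured, and their median difference was 0.11 in the library labelled Tut1 KO against the Control, 0.08 in the Double KO against the Trp53 KO, -0.07 in the Trp53 KO against the Control and -0.0093 in the Double KO against the library labelled Tut1 KO. No measured assembly factor was past 1.5-fold in any of the 4 contrasts.

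Of 13 regulators of mitochondrial genes or of respiration, 11 were measured. Their median difference was -0.14 in the library labelled Tut1 KO against the Control and 0.04 in the Double KO against the Trp53 KO. It was -0.07 in the Trp53 KO against the Control and 0.30 in the Double KO against the library labelled Tut1 KO. There 8 of the 11 were higher, beside 60.6% of all measured genes. Nrf1, which binds the motif shown above, stood at 25.6, 22.7, 27.1 and 21.1 TPM in the Control, the library labelled Tut1 KO, the Trp53 KO and the Double KO, and was past 1.5-fold in none of the contrasts. Gabpb1, a subunit of the factor that binds the Gabpa motif, stood at 19.0, 25.8, 11.9 and 32.3 TPM. Its difference was 1.36 in the Double KO against the Trp53 KO and -0.63 in the Trp53 KO against the Control. Hif1a, which directs the response to low oxygen, stood at 63.4, 35.7, 53.3 and 54.8 TPM, with differences of -0.81 in the library labelled Tut1 KO against the Control and 0.61 in the Double KO against the library labelled Tut1 KO. Esrra, an orphan nuclear receptor that drives oxidative genes, stood at 42.8, 51.7, 38.7 and 29.2 TPM and had a difference of -0.80 in that last contrast.

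Many respiratory chain genes have left processed pseudogenes, intronless copies of their mRNA elsewhere in the genome, and reads from gene and copy are hard to separate. Among annotated pseudogenes, 95 matched a member with at least 90% identity over at least 80% of their length, and they belong to 36 members. Of these copies, 22 reached 10 TPM in some library, all of a single exon. Copies held 6.08% of the summed TPM of members and copies in the Control, 6.09% in the library labelled Tut1 KO, 6.01% in the Trp53 KO library and 5.14% in the Double KO. In 9 members the copies held over 10% of the sum on average, so the values of these genes are uncertain.

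Ndufa12, an accessory subunit of complex I at the foot of the matrix arm, was the case in which the copy mattered most. Ndufa12 (chr10:94198720-94221443, mm10) stood at 126 TPM in the Control, 215 TPM in the library labelled Tut1 KO, 157 TPM with Trp53 KO and 201 TPM with Double KO. Its single-exon copy Ndufa12-ps (chr5:130188395-130188796) stood at 374, 136, 323 and 122 TPM. The sums were 499.8, 351, 479.8 and 324 TPM, so the gene alone was higher, and gene plus copy lower, in both libraries labelled as lacking Tut1. The copy aligns with 402 of the 438 coding bases of the gene and differs at 2 of them, A135G and T414C, with the base of the gene first and positions counted from the A of the start codon. Only reads across these bases, or beyond the aligned stretch, can tell the transcripts apart. The stretches around them are shown in GENCODE M21 sequence with the differing base in capitals.
Ndufa12 at 135: gaagacaaatatggAaataaatactacga
Ndufa12-ps at 135: gaagacaaatatggGaataaatactacga
Ndufa12 at 414: attcatgaatgggtTccaccttcgacacc
Ndufa12-ps at 414: attcatgaatgggtCccaccttcgacacc

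Other copies also differed between libraries. Cox6c with its 2 copies stood at 815 TPM in the Control, 893 TPM in the library labelled Tut1 KO, 616 TPM with Trp53 KO and 736 TPM with Double KO. The copies alone stood at 7.09, 9.95, 76.3 and 78.1 TPM, high in both Trp53-deleted libraries, where Cox6c itself was low. The 4 copies of Uqcrb, a complex III subunit, stood at 26.6, 135, 27.7 and 27.5 TPM, high in the library labelled Tut1 KO alone. The difference of Uqcrb in the Double KO against that library was 0.09 for the gene alone and -0.15 with the copies. Copies of Cox7c held 26.2%, 30.9%, 26.1% and 26.7% of their sum with the gene, and 1 of them is identical to the Cox7c transcript over the aligned stretch.
For Atp5g1 the 5 copies held 47.4% to 63.1% of the sum. With them Atp5g1 stood at 258, 383, 310.2 and 361 TPM.

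**Figure D5:**
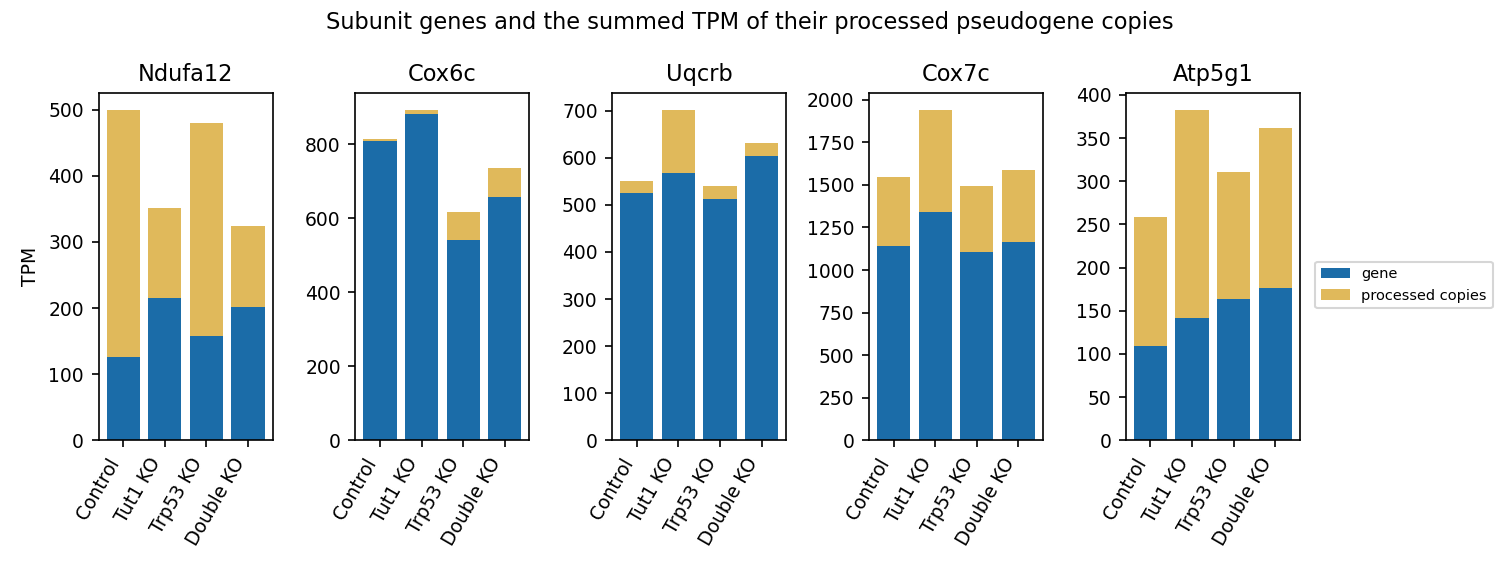
TPM of 5 members (blue) and the summed TPM of their processed pseudogene copies (yellow, stacked), by library, on axes that start at 0. For Ndufa12 the blue bars are tallest in the libraries labelled Tut1 KO and Double KO, whereas the full bars are tallest in the Control and the Trp53 KO, at 499.8 and 479.8 TPM.

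The members lie on 19 chromosomes, with the most, 8, on chromosome 7. For 6 members an exon shares same-strand sequence with an exon of another annotated gene, among them Ndufb8, Ndufb9, Ndufb2 and Atp5g2. The extra Atp5o entry, listed at 0, overlaps Atp5o in this way, so the Atp5o values depend on how reads were shared between the entries.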

How the data were processed

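The authors deposited gene-level TPM for 55487 Ensembl genes. The submitters' notes name Trimmomatic, HISAT2, StringTie and mm10 without roles or versions. The labels describe a stranded short-read mRNA kit, whereas the series text describes long reads, so the platform is unclear. TPM was used as deposited, and 0 sample columns were left unused. Members, gene lists and motifs were chosen with earlier results of these data known. A pseudocount of 1 was added before the log2, so changes of low genes are understated. Genes with a mean of at least 10 TPM over the 4 libraries were kept, and calls were made at 2-fold and 1.5-fold. Coordinates, lengths and GC content came from GENCODE M21 (GRCm38), in which 55227 gene IDs were found, with 1 principal or longest transcript per gene. Pseudogene copies were found with blastn 2.17.0. Genes named were Tut1, Trp53, the highest and lowest member of each complex, core, catalytic and paired subunits, complex II, the 3 largest differences each way per contrast, members past 2-fold or listed at 0, and pathway genes past 1.5-fold. Some further genes and copies were named after their values were seen, among them the members past 1.5-fold, those with the widest gaps, the core subunits' partners and the genes with copies. The code, tested on simulated data, ran in Python 3.11.15 with pandas 2.3.3, numpy 2.4.6, matplotlib 3.10.9 and scipy 1.17.1. With 1 library per group there are no replicates, tests or intervals. Alternatives were other pseudocounts, minimums and scalings, removal of a length and GC fit, and adding copies to their gene. Of the genes the naming rule covers, 1 is not reported here.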

Additional observations from a re-analysis of the deposited data

How the results depend on the processing

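The direction of the median in both contrasts of the Tut1 label held under every alternative run. With a 1.5-fold in place of a 2-fold threshold, the members past it numbered 10 in the library labelled Tut1 KO against the Control, 1 in the Double KO against the Trp53 KO, and 5 when the Double KO was set against the library labelled Tut1 KO. For the Trp53 KO against the Control the median of the members, near 0, changed sign to 0.0019 with a mean of at least 1 TPM, to 0.0048 with no minimum and to 0.048 with the median of all genes set to 0. A mean of at least 1 TPM, or no minimum, added low members. Either gave 1 member past 2-fold in the library labelled Tut1 KO against the Control, 1 lower by 1.5-fold in the Double KO against the Trp53 KO, 2 past 2-fold and 3 higher by 1.5-fold in the Trp53 KO against the Control, and 2 and 2 in the Double KO against the library labelled Tut1 KO. Trp53-deleted above intact libraries then numbered 4 and 5. A minimum of 10 TPM in at least 1 library compared gave 1 member past 2-fold in the library labelled Tut1 KO against the Control. With the all-gene median set to 0, 19 members were 1.5-fold higher there, 1 was higher in the Trp53 KO against the Control, and 11 were lower in the Double KO against the library labelled Tut1 KO. Quantile normalization gave 1 member 1.5-fold lower in the Trp53 KO against the Control. With the length and GC fit removed, the library labelled Tut1 KO against the Control had a median of 0.19 and 4 members 1.5-fold higher, the Trp53 KO against the Control had 1 higher and 1 lower, and the Double KO against the library labelled Tut1 KO had a median of -0.11 and 2 lower. With copies added, 1 member had both Trp53-deleted libraries above, and 1, Ndufa12, had both libraries labelled as lacking Tut1 below. Except for the change of threshold, no share of all measured genes past a fold is given for these alternatives. Beyond what each alternative adds or removes, the cause was not tested. Pseudocounts of 0.1 and 5, and leaving out 115 genes for ribosomal proteins or encoded by mitochondrial DNA, moved no result past these limits. The fit on contrasts gives no library levels, so non-overlap counts were not run with it. The fit for each library, chosen after seeing the data, moved none of the 4 non-overlap counts by over 1.5 times. No paired analysis was possible because each group has 1 library, which also leaves none to leave out.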
